A study of Mus musculus with 200 samples.

Results

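Metallothioneins are small cysteine-rich proteins that bind zinc and copper, and the genes described here are 3 of them, the transcription factor that senses zinc, and 3 zinc transporters. They are Mt1, Mt2, Mt3, Mtf1, Slc30a1, Slc39a14 and Slc39a11, 7 of the 56941 genes listed in a table of estimated read counts from mouse brain. They were selected on their values in these data, namely the comparisons of closed-head injury (CHI) with sham surgery in each of 4 strains at 9, 24 and 72 h. Their differences between CHI and sham in those 12 comparisons are therefore given as a description, with no p-value.

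The series held 200 mice, 67 of them with sham surgery and the others with CHI. CHI was a single midline impact on the closed skull, and sham mice received anaesthesia and a scalp incision. One hemisphere per mouse was frozen after perfusion, so each value is a mixture of brain cell types, and fewer cells of a type cannot be told apart from less RNA per cell. The strains were C57BL/6J (61 mice), IL-1R1 nRestore (34), IL-1R1 eRestore (50) and IL-1R1 gKO (55), where IL-1R1 is the type 1 receptor for interleukin-1. The labels do not say which cells drive the eRestore and nRestore alleles or how the gKO allele was made. The study's paper describes the surgery and the hemisphere sampling for C57BL/6J mice and does not name the other strains. The same steps are assumed for them here. Groups of 1 strain, surgery and time held 4 to 15 mice aged 3.3 to 7.67 months, with 98 males and 102 females in all; the IL-1R1 nRestore mice at 72 h were all labelled male.

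Total counts per mouse ranged from 14857985 to 57355676, with a median of 20258936. Il1r1, the gene named by the strain labels, was not lower in the altered strains: its median was 5.21 CPM (counts scaled to library size by TMM factors) in C57BL/6J mice, 9.39 in IL-1R1 nRestore, 7.77 in IL-1R1 eRestore and 9.93 in IL-1R1 gKO. A count over the whole gene does not check an allele that leaves the transcript in place, so strain names below stand for mice so labelled. In 2 of 200 mice, both labelled male, the X-inactivation transcript Xist was above the Y-linked gene Ddx3y. These were sham mouse 4 of IL-1R1 eRestore at 24 h and CHI mouse 6 of IL-1R1 nRestore at 72 h. For the C57BL/6J mice the study's methods place all operations in the morning, so those collected at 9 h were taken at another time of day than those of 24 and 72 h; for the other strains the time of operation is not given in the sources used here. In all strains, the 3 experiments that held the 9 h mice held no mouse of 24 or 72 h.

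Metallothioneins buffer free zinc, and in brain Mt1 and Mt2 are made mainly by astrocytes whereas Mt3 is enriched in nervous tissue. When zinc rises, Mtf1 binds metal response elements (MREs) in promoters such as those of Mt1, Mt2 and Slc30a1. Slc30a1 (ZnT1) exports zinc across the plasma membrane, Slc39a14 (ZIP14) imports zinc and also iron and manganese, and Slc39a11 (ZIP11) is another member of the ZIP family. Mt1 and Mt2 are also known targets of glucocorticoids and of STAT3 signalling.

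Mt1, Mt2 and Mt3 lie in 1 cluster on chromosome 8 and share a strand. In the GENCODE annotation of GRCm39, Mt3 spans 94879220 to 94881088, Mt2 94898819 to 94900207 and Mt1 94905710 to 94906955, with 5502 bases between Mt2 and Mt1. Mtf1 lies on chromosome 4 at 124695897 to 124743593, Slc30a1 on chromosome 1 at 191638808 to 191645361, Slc39a14 on chromosome 14 at 70540678 to 70588914 and Slc39a11 on chromosome 11 at 113134467 to 113541227. All 7 are protein-coding genes. Mt2, Mtf1, Slc30a1 and Slc39a11 each overlap at least 1 gene on the other strand, and Mtf1 also overlaps 1 on the same strand. Overlap was taken over whole gene spans, introns included. The strand setting of the counting is not given in the sources used here, and whether reads of such pairs were mixed was not checked.

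The promoters of the 2 metallothioneins that differed most between CHI and sham carry several copies of the MRE core. They are shown with those of Slc30a1, another known target of Mtf1, and of Mt3, which held none, as 280 bases from 250 before to 30 after the RefSeq start in GRCm38.p6. Capitals mark the core TGCACNC or TGCGCNC, or its reverse complement, on either strand.
Mt1: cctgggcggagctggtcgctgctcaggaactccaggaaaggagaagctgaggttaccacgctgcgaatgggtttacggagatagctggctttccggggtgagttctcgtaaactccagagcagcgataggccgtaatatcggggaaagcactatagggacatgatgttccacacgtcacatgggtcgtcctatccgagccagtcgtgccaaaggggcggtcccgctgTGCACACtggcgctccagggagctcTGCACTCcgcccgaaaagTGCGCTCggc
Mt2: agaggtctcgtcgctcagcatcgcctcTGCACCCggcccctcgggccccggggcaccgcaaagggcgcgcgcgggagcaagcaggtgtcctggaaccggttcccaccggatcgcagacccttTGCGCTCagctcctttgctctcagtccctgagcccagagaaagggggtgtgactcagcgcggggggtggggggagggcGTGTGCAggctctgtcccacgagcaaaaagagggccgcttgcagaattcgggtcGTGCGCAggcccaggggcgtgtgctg
Slc30a1: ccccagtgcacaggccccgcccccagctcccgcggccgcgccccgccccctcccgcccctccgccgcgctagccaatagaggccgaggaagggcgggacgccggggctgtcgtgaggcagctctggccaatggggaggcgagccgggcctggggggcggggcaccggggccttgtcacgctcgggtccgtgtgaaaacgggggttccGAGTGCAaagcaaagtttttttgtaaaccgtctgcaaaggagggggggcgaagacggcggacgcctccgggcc
Mt3: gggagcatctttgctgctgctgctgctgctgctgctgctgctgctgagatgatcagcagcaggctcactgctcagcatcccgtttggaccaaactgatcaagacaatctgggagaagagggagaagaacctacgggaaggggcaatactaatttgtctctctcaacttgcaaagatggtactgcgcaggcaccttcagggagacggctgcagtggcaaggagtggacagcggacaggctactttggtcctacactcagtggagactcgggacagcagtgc
These windows lie at chr8:94178839-94179118 (Mt1), chr8:94172368-94172647 (Mt2), chr1:191906531-191906810 (Slc30a1) and chr8:94152357-94152636 (Mt3), all on the plus strand. The core was present 3 times in the Mt1 window and 4 times in the Mt2 window. Slc30a1 held 1 core, Slc39a11 held 1 at each of 2 starts, and Mtf1 and Mt3 held 0. Of 32841 promoters of the same length, 24.09% held at least 1 core and 1.73% held at least 3. The glucocorticoid half-site AGAACA was found in the Mtf1 window only, once, against 17.85% of all promoters with at least 1, and the STAT site TTCNNNGAA was in none of the 7 windows searched, against 7.83% of all promoters. Sites farther from the start than these windows reach were not searched, so a count of 0 does not show that a gene lacks them. Slc39a14 had no entry in the promoter table.

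Levels between genes were compared per transcript length, as TPM. In the 67 sham mice, Mt3 stood at 681 ± 110.9 TPM (SD), Mt1 at 587 ± 150 and Mt2 at 266 ± 94.0. Mt3 and Mt1 lay within 1 SD of each other. The transporters and Mtf1 were far lower: Slc30a1 stood at 17.9 ± 2.55 TPM, Slc39a14 at 17.7 ± 3.13, Mtf1 at 14.1 ± 2.23 and Slc39a11 at 9.83 ± 1.74. Slc30a1 and Slc39a14 did not differ beyond their spread. Mt4, the fourth metallothionein of the mouse, was listed at 0 in all but 6 of 200 mice.

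At 9 h, Mt1 and Mt2 were higher after CHI in all 4 strains, by 1.18- to 3.24-fold in fits adjusted for sex and age, with Mt2 differing more than Mt1 in each. The highest, Mt2 in IL-1R1 nRestore, lay between 1.22 and 2.01 on the log2 scale over 11 alternative fits. In C57BL/6J, Mt2 was 27.6, 40.2 and 57.7 CPM (lowest, median, highest) in 6 sham mice and 60.1, 100.02 and 166.98 CPM in 15 CHI mice. The 2 groups did not overlap: all 15 CHI mice lay above the highest sham mouse. Here and below, how many other genes show such separation was not counted. By edgeR at an adjusted p under 0.05, 7.05% of all genes were called higher there, which is another measure. The log2 fold change of Mt2 was 1.33 ± 0.19 (SE). Mt1 was 80.2, 86.9 and 140.1 CPM in the sham mice and 112, 175.4 and 259 CPM in the CHI mice. For Mt1, 13 of 15 CHI mice were above every sham mouse, and the log2 fold change was 0.78 ± 0.16.

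In IL-1R1 gKO mice at 9 h, the groups overlapped for both genes. Mt2 was 22.3, 43.9 and 80.5 CPM in 6 sham mice and 40.2, 67.99 and 129.4 CPM in 13 CHI mice, a log2 fold change of 0.73 ± 0.30. Mt1 was 61.7, 96.0 and 151.5 CPM against 90.0, 129.6 and 231 CPM, or 0.58 ± 0.21. For each gene 4 of 13 CHI mice lay above every sham mouse, and the highest Mt2 value of the sham mice was 80.5 CPM.

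In IL-1R1 eRestore mice at 9 h, the groups overlapped for both genes. Mt2 was 40.6, 47.1 and 86.1 CPM in 6 sham mice and 47.8, 78.2 and 135 CPM in 12 CHI mice, a log2 fold change of 0.58 ± 0.21. Mt1 was 102, 109.6 and 191.1 CPM against 97.8, 148.8 and 211 CPM, or 0.24 ± 0.15. A single sham mouse was high for both genes, at 191.1 CPM for Mt1 and 86.1 CPM for Mt2. Without it the log2 fold changes were 0.79 for Mt2 and 0.41 for Mt1, and in the largest experiment alone (8 CHI and 3 sham mice) they were 0.31 and 0.063.

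In IL-1R1 nRestore mice at 9 h, which came from 1 experiment, the groups again overlapped. The 4 sham mice had Mt2 at 17.7, 29.2, 39.4 and 45.0 CPM, and the 6 CHI mice ranged from 34.2 over a median of 74.7 to 143.8 CPM. Mt1 was 54.8, 80.7, 92.8 and 105.7 CPM in the sham mice and 94.8, 164.7 and 232 CPM in the CHI mice. With sex and age as covariates the log2 fold changes were 1.70 ± 0.50 for Mt2 and 1.25 ± 0.29 for Mt1. Without covariates, the difference in mean log2 CPM was 1.17 for Mt2 and 0.90 for Mt1. In the 2 experiments of C57BL/6J at 9 h that difference was 1.38 and 1.25 for Mt2, and 0.91 and 0.59 for Mt1. For the 2 genes, 4 and 5 of 6 CHI mice lay above every sham mouse.

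**Figure D1:**
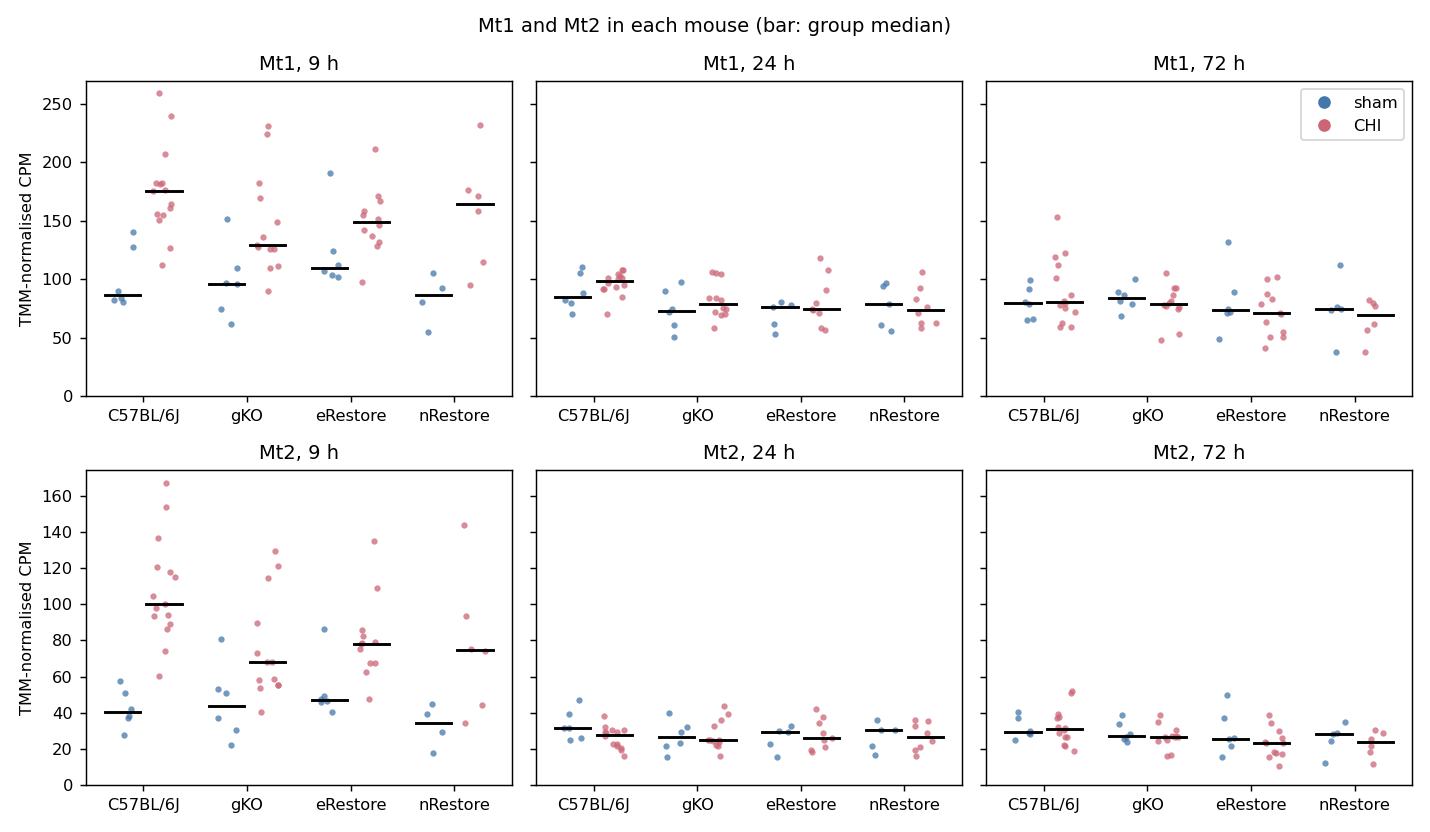
Mt1 (top) and Mt2 (bottom) in each mouse, as TMM-normalised CPM on the y axis, by strain on the x axis and by time in columns; blue points are sham mice, red points are CHI mice and bars are group medians. At 9 h the CHI medians lie above the sham medians in all 4 strains, and for Mt2 in C57BL/6J the 15 CHI mice lie above the 6 sham mice; at 24 and 72 h the groups overlap.

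The 9 h difference was present within each experiment. Mice of 1 strain with both surgeries formed 8 such sets, and in 8 of 8 the mean log2 CPM was higher after CHI, by 0.20 to 0.91 for Mt1 and by 0.48 to 1.38 for Mt2. At 24 h, Mt2 was higher after CHI in 1 of 7 sets and Mt1 in 2 of 7. At 72 h each was higher in 4 of 11.

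At 24 h, the CHI and sham groups overlapped for both genes in every strain. Mt2 in C57BL/6J was 24.8, 31.3 and 46.8 CPM in 6 sham mice and 16.0, 27.9 and 38.4 CPM in 14 CHI mice, with 6 of 14 CHI mice below every sham mouse and a log2 fold change of -0.41 ± 0.15. In the largest experiment alone, with 7 CHI and 3 sham mice, that value was -0.089. Mt1 in the same mice was 70.0, 85.2 and 110.9 CPM against 69.9, 98.5 and 108 CPM, or 0.10 ± 0.09. In the other strains the log2 fold changes at 24 h lay between -0.14 and 0.04 for Mt1 and between -0.19 and -0.07 for Mt2. Some of those CHI mice came from an experiment that held no sham mouse of their strain at 24 h. They were 5 of 12 in IL-1R1 gKO, 4 of 9 in IL-1R1 eRestore and 4 of 8 in IL-1R1 nRestore. Ages reached 7.4 months in the IL-1R1 eRestore CHI mice and 5.3 in the sham mice. The fits had no term for experiment, so surgery cannot be fully told apart from experiment and age there.

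At 72 h, the log2 fold changes in C57BL/6J were 0.09 ± 0.16 for Mt1 and -0.03 ± 0.15 for Mt2. In the other 3 strains they lay between -0.27 and -0.19 for Mt1 and between -0.42 and -0.21 for Mt2, each with groups that overlapped.

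The proportion of Mt1 to Mt2 also differed between CHI and sham mice. Over the 4 strains, the ratio of Mt1 to Mt2, in TPM, was 2.06 ± 0.28 (SD) in 22 sham mice and 1.63 ± 0.28 in 46 CHI mice at 9 h. In C57BL/6J at 9 h it was 1.84, 1.93 and 2.44 (lowest, median, highest) in sham mice and 1.11, 1.48 and 1.74 in CHI mice, so that the groups did not overlap. In IL-1R1 eRestore 10 of 12 CHI mice lay below every sham mouse, in IL-1R1 gKO 4 of 13 and in IL-1R1 nRestore 4 of 6. In each strain the CHI median was the lower one. The ratio is built from genes selected on these comparisons, and ratios of other gene pairs were not computed.

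At 24 h the order of the ratio was the opposite in C57BL/6J, with 1.94, 2.38 and 2.64 in sham mice and 2.39, 3.09 and 4.01 in CHI mice, 12 of 14 of which lay above every sham mouse. In IL-1R1 gKO, 3 of 12 CHI mice did so, in IL-1R1 eRestore 0 of 9 and in IL-1R1 nRestore 2 of 8. At 72 h the pooled ratio was 2.40 ± 0.25 in 23 sham mice and 2.53 ± 0.28 in 44 CHI mice. When the reads of both genes were summed, the C57BL/6J log2 fold change was 0.97 at 9 h and -0.02 at 24 h.

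**Figure D2:**
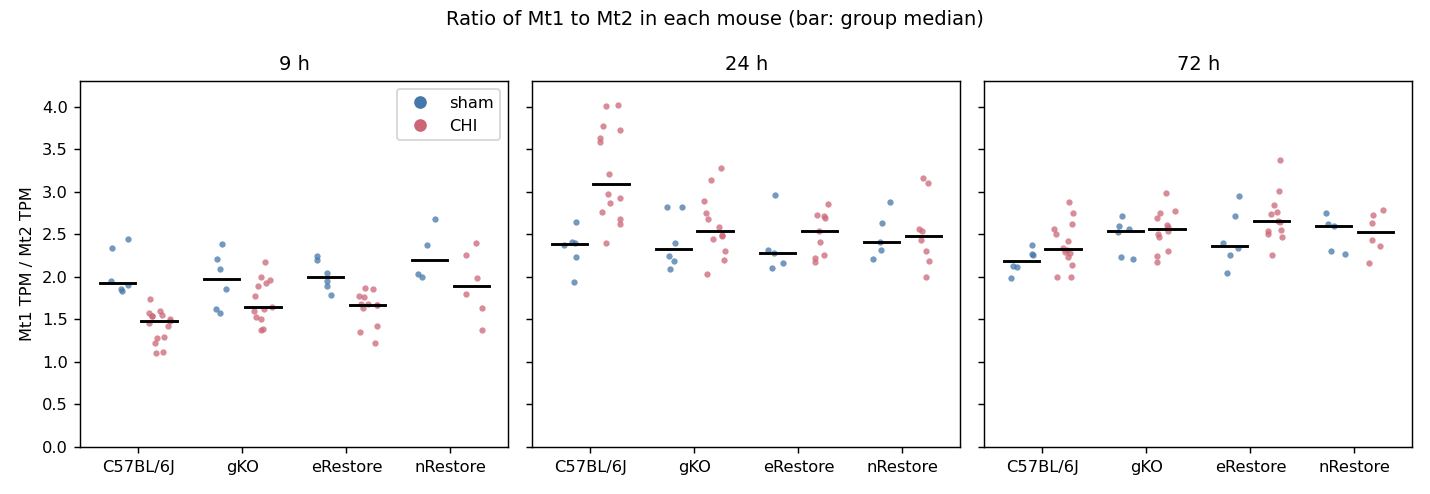
Ratio of Mt1 TPM to Mt2 TPM in each mouse (y axis) by strain (x axis) and time (columns); blue points are sham mice, red points are CHI mice and bars are group medians. At 9 h the CHI medians lie below the sham medians in each strain; at 24 h the C57BL/6J CHI mice, with a median of 3.09, lie mostly above their sham mice, with a median of 2.38.

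Mt3, a metallothionein also known as growth inhibitory factor, did not follow Mt1 and Mt2. In C57BL/6J at 9 h it was 62.0, 77.6 and 141.9 CPM in sham mice and 56.3, 75.7 and 128.8 CPM in CHI mice, a log2 fold change of -0.15 ± 0.18. It was lower after CHI in IL-1R1 eRestore at 9 h, at 92.7, 101.1 and 135.9 CPM in 6 sham mice against 71.1, 85.4 and 107.5 CPM in 12 CHI mice. There 8 of 12 CHI mice were below every sham mouse, and the log2 fold change was -0.29 ± 0.08, or -0.21 without the sham mouse that was also high for Mt1 and Mt2. Over the 12 comparisons Mt3 ranged from -0.29 to 0.16 on the log2 scale.

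Mtf1, the zinc-sensing factor, differed by 0.18 or less on the log2 scale in all 12 comparisons. At 9 h it was lower after CHI in C57BL/6J, where 6 sham mice had 32.9, 37.1 and 40.9 CPM and 15 CHI mice 29.1, 34.4 and 38.1 CPM, a log2 fold change of -0.15 ± 0.06. In IL-1R1 gKO it was also lower, by -0.18 ± 0.07, with 8 of 13 CHI mice below every sham mouse. In IL-1R1 eRestore it was higher, by 0.14 ± 0.06, with 8 of 12 CHI mice above every sham mouse, whereas IL-1R1 nRestore gave -0.10 ± 0.08. With the transcript-length correction of the study's methods, the IL-1R1 eRestore value was -0.10.

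Slc30a1, the zinc exporter, was 49.9, 52.2 and 62.2 CPM in C57BL/6J sham mice at 9 h and 50.2, 55.6 and 68.7 CPM in CHI mice, a log2 fold change of 0.05 ± 0.06. A single CHI mouse of 15 lay above every sham mouse. Over the 12 comparisons its log2 fold change lay between -0.14 (C57BL/6J, 72 h) and 0.17 (IL-1R1 eRestore, 24 h).

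Slc39a14, the importer of zinc, iron and manganese, was 31.4, 35.9 and 41.8 CPM in C57BL/6J sham mice at 9 h and 32.8, 36.6 and 46.2 CPM in CHI mice, or 0.06 ± 0.07 on the log2 scale. Its 12 log2 fold changes lay between -0.09 and 0.15, and the highest, in IL-1R1 nRestore at 9 h, was -0.15 with the transcript-length correction.

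Slc39a11 differed most in C57BL/6J at 72 h. It was 7.24, 9.30 and 10.1 CPM in 6 sham mice and 10.5, 11.6 and 12.9 CPM in 14 CHI mice, which all lay above every sham mouse. The log2 fold change was 0.35 ± 0.07. By edgeR neither Slc39a11 nor any other gene was called there (0% of all genes), and how many other genes show such separation was not counted. With the transcript-length correction of the study's methods the same log2 fold change was 0.08. In the other strains at 72 h the log2 fold change was 0.08 in IL-1R1 nRestore, 0.10 in IL-1R1 eRestore and -0.02 in IL-1R1 gKO.

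**Figure D3:**
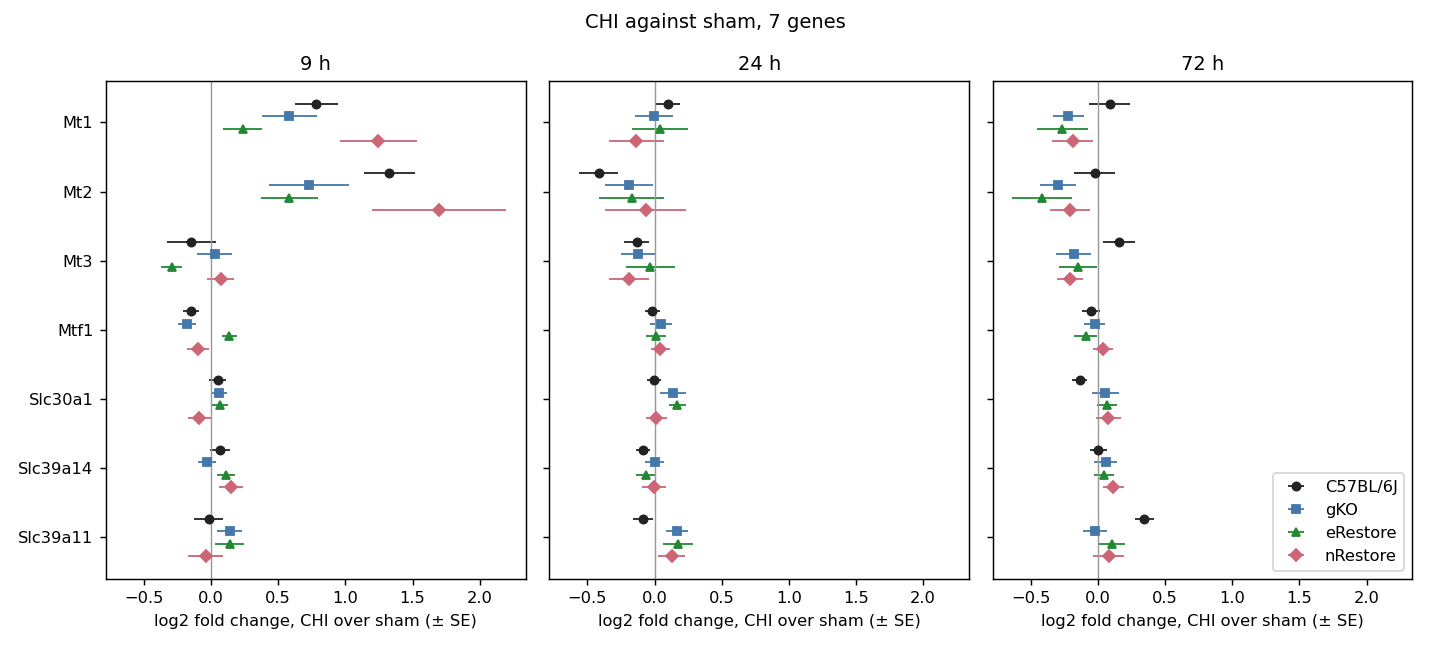
Log2 fold change of CHI over sham (x axis, bars are ± SE) for the 7 genes (y axis) in the 4 strains (symbols) at 9, 24 and 72 h (panels). Mt1 and Mt2 lie to the right of 0 at 9 h in every strain, from 0.24 to 1.70; every other value lies between -0.42 and 0.35.

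Calls at an adjusted p under 0.05 (edgeR quasi-likelihood test, Benjamini-Hochberg over all genes) are given beside the same over all genes, and nothing is read from them for these 7. In C57BL/6J at 9 h, 2 of 7 were called higher (Mt1, Mt2) and 0 lower, where 7.05% and 7.00% of all genes were. In IL-1R1 eRestore at 9 h, 0 were called higher and 1 lower (Mt3), against 4.10% and 3.24%. In the other 10 comparisons 0 of 7 were called. The shares of all genes called there were, at 9 h, 0.199% in IL-1R1 gKO in either direction, and 0.345% higher and 0.262% lower in IL-1R1 nRestore. At 24 h they were 0.229% higher and 0.175% lower in C57BL/6J, 0.00590% in IL-1R1 gKO and 0% in the other 2 strains. At 72 h they were 0% in C57BL/6J and IL-1R1 gKO, 0.00605% in IL-1R1 eRestore and 0.0121% in IL-1R1 nRestore. Where 0% of genes were called, an unadjusted p under 0.05 was reached by 1494 genes in IL-1R1 eRestore and 740 in IL-1R1 nRestore at 24 h, and by 869 in C57BL/6J and 376 in IL-1R1 gKO at 72 h. DESeq2 called 55, 3, 41 and 0 genes in these comparisons.

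The differences between strains in the effect of CHI come from the comparisons that chose the genes, so they too are given as a description, with no p-value. In an interaction with 3 degrees of freedom, edgeR called 0 of the 7 genes at 9, 24 and 72 h, beside 0.00534%, 0.00541% and 0.00543% of all genes, and nothing is read from these counts. The Mt2 effect at 9 h minus that in C57BL/6J was -0.60 ± 0.34 (SE, log2) in IL-1R1 gKO, -0.73 ± 0.35 in IL-1R1 eRestore and -0.07 ± 0.40 in IL-1R1 nRestore. In the same order of strains, this difference was -0.20 ± 0.25, -0.51 ± 0.25 and 0.14 ± 0.30 for Mt1. For Mtf1 it was -0.04 ± 0.08, 0.27 ± 0.08 and 0.09 ± 0.09. These values come from 1 fit of all mice at 9 h with shared sex and age terms. They need not equal the differences between the fold changes above, which were fitted strain by strain.

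Of the other zinc transporters, 1 rose in C57BL/6J and 1 in IL-1R1 eRestore, both at 9 h. Of 22 listed (the remaining Slc30 and Slc39 genes and Mt4), 18 or 19 were tested in each comparison, with levels in sham mice from 0.0114 to 120.03 TPM. In C57BL/6J at 9 h, 1 of 19 rose and 0 fell, beside 7.05% and 7.00% of all genes, with a list median of -0.02 on the log2 scale beside -0.01 over all genes. The gene was Slc39a1, a plasma membrane zinc importer, which rose by 0.25 ± 0.07 (edgeR adjusted p = 0.016). In IL-1R1 eRestore at 9 h, 1 of 18 rose, beside 4.10% of all genes, with a list median of 0.05 beside -0.02. It was Slc39a10, which rose by 0.27 ± 0.08 (edgeR adjusted p = 0.032). In the 10 other comparisons 0 were called by edgeR. These lists, and the others below, were drawn up with earlier results of these data known.

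Of 7 copper-handling genes, 1 rose in C57BL/6J at 9 h, beside 7.05% of all genes, with a list median of -0.05 beside -0.01. It was the ferroxidase Cp, which rose by 0.49 ± 0.11 (edgeR adjusted p = 0.0026). In IL-1R1 eRestore 1 of 7 fell, the copper chaperone Atox1, by 0.41 on the log2 scale, beside 3.24% of all genes, with a list median of -0.20 beside -0.02. Of 6 iron genes tested at 9 h, 1 rose in C57BL/6J, beside 7.05% of all genes, with a list median of 0.11 beside -0.01. It was Hmox1, which breaks down haem, by 1.13 ± 0.24. In IL-1R1 nRestore 2 of 6 rose, beside 0.345% of all genes, with a list median of 0.10 beside 0.01. They were Hmox1, by 1.27 ± 0.25, and Ftl1, the ferritin light chain, by 0.51 ± 0.09.

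Known glucocorticoid and STAT3 targets were listed because Mt1 and Mt2 are targets of both. In C57BL/6J at 9 h, 5 of 7 glucocorticoid targets rose and 0 fell, beside 7.05% and 7.00% of all genes, with a list median of 0.67 beside -0.01 over all genes. They were Plin4 (2.82 ± 0.31), Fkbp5, a co-chaperone of the glucocorticoid receptor (1.98 ± 0.15), Sult1a1 (0.80 ± 0.11), the kinase Sgk1 (0.67 ± 0.14) and Tsc22d3, or GILZ (0.60 ± 0.09), each with an edgeR adjusted p of 0.0024 or less. In IL-1R1 eRestore, with a list median of 0.15 beside -0.02 over all genes, 2 of 7 rose, Plin4 by 1.61 ± 0.30 and Fkbp5 by 0.94 ± 0.21, beside 4.10% of all genes. In the remaining strains 0 of 7 were called, with list medians of 0.16 in IL-1R1 gKO and 0.44 in IL-1R1 nRestore. In C57BL/6J at 9 h the list median of the 6 IL-6 and STAT3 targets was 1.38, beside -0.01 over all genes. Of these 6, 5 rose, beside 7.05% of all genes. They were Lcn2 (3.79 ± 0.45), an iron-siderophore binding protein, Timp1 (1.98 ± 0.47), Serpina3n (1.47 ± 0.25), Osmr (1.28 ± 0.16) and Stat3 itself (0.39 ± 0.08). Osmr, the oncostatin M receptor, was the 1 of 5 tested that rose in IL-1R1 eRestore (0.76 ± 0.19, list median 0.42, beside 4.10% of all genes) and in IL-1R1 nRestore (1.43 ± 0.22, list median 1.43, beside 0.345%). In IL-1R1 gKO 0 of 6 were called, with a list median of 0.94 beside 0.00 over all genes. At 24 h in C57BL/6J, Timp1 (2.17 ± 0.44) and Serpina3n (0.86 ± 0.18) rose, beside 0.229% of all genes, with a list median of 0.10 beside -0.00, and 0 of 7 glucocorticoid targets were called, with a list median of 0.05.

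Cell type markers at 9 h stood as follows beside the Mt1 and Mt2 differences, and their part in them was not tested. Beside the counts below, 7.05% of all genes were called higher and 7.00% lower in C57BL/6J, and 4.10% and 3.24% in IL-1R1 eRestore. In IL-1R1 nRestore these shares were 0.345% and 0.262%, and in IL-1R1 gKO 0.199% in either direction. In C57BL/6J, 2 of 6 astrocyte markers rose, Gfap and Aldh1l1, and the other 4 lay below 0, with a list median of -0.02 beside -0.01 over all genes; the summed astrocyte level was 1069 to 1539 CPM in sham mice and 1238 to 1709 in CHI mice. That sum was 1345 to 1538 CPM in sham and 1229.9 to 1787 in CHI mice of IL-1R1 gKO, 1312 to 1598 and 1250.2 to 1670.2 in IL-1R1 eRestore, and 1239 to 1531 and 1380.3 to 1657 in IL-1R1 nRestore. In IL-1R1 eRestore 1 of 6 astrocyte markers rose (Gfap) and 1 fell (S100b), with a list median of -0.10 beside -0.02, in IL-1R1 nRestore 1 rose (Aldh1l1), with 0.13 beside 0.01, and in IL-1R1 gKO 0 were called, with -0.06 beside 0.00. Of 3 endothelial markers in C57BL/6J, Pecam1 rose and Flt1 fell. Of 4 microglia markers, 3 fell in C57BL/6J (Tmem119, Aif1 and P2ry12), with sums of 91.7 to 161.4 CPM in sham and 53.8 to 107.5 in CHI mice. The 4 choroid plexus markers summed to 16.1 to 3313 CPM in sham and 3.80 to 1637 in CHI mice, a wide range in both groups. Summed blood markers were 1.63 to 84.2 and 0.845 to 227 CPM. The 3 neutrophil markers were at or near 0, with sums up to 0.441 CPM in the C57BL/6J mice of 9 h.

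In sham mice, Mt1 and Mt2 were higher at 9 h than later. Mt2 averaged 44.3 ± 16.2 CPM (SD) in 22 mice at 9 h, 28.5 ± 7.98 in 22 at 24 h and 29.1 ± 8.16 in 23 at 72 h. The difference of 9 h minus 24 h was 0.61 ± 0.13 (SE, log2) for Mt2, with an edgeR adjusted p of 0.00014. For Mt1 it was 0.37 ± 0.11 (edgeR adjusted p = 0.0039), from means of 103.03 and 78.1 CPM. Slc30a1 was also higher at 9 h, at 54.5 ± 3.93 CPM against 44.7 ± 4.41 (0.28 ± 0.04, edgeR adjusted p = 4.6e-07). Against 72 h, Mt1 (0.33 ± 0.11), Mt2 (0.58 ± 0.13), Slc30a1 (0.21 ± 0.04), Slc39a11 (0.18 ± 0.05) and Slc39a14 (0.10 ± 0.04) were called, all higher at 9 h. For Mt3 the differences were -0.0071 ± 0.092 (95% interval -0.19 to 0.17) and 0.0089 ± 0.090 (-0.17 to 0.19). These sham mice are the same as in the comparisons that chose the genes, and the p-values take no account of that.

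These 3 and 5 calls of 7 stand in a comparison where much of the transcriptome differed: 24.1% of all genes were called higher at 9 h than at 24 h and 24.8% lower, and 23.3% and 23.6% against 72 h. Sham mice at 9 h differ from the later ones in experiment, in age and, for C57BL/6J at least, in time of day. These cannot be told apart from the time since surgery. The fits held strain and sex but not age. C57BL/6J sham mice were 4.4 to 4.8 months old at 9 h, 4.8 to 5.93 at 24 h and 5.17 to 6.8 at 72 h. Between 24 and 72 h, 0 of 7 genes were called, beside 0.0300% of all genes, with 0 of 7 at an unadjusted p under 0.05 and 0 called by DESeq2. In C57BL/6J sham mice alone, 1 of 7 was called in each of the 9 h comparisons, and Mt2 had a difference of 0.36 (edgeR adjusted p = 0.13) against 24 h and 0.43 (edgeR adjusted p = 0.065) against 72 h. Without the 2 mice whose sex-linked genes went against the label, Slc39a14 against 72 h had an edgeR adjusted p of 0.054.

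**Figure D4:**
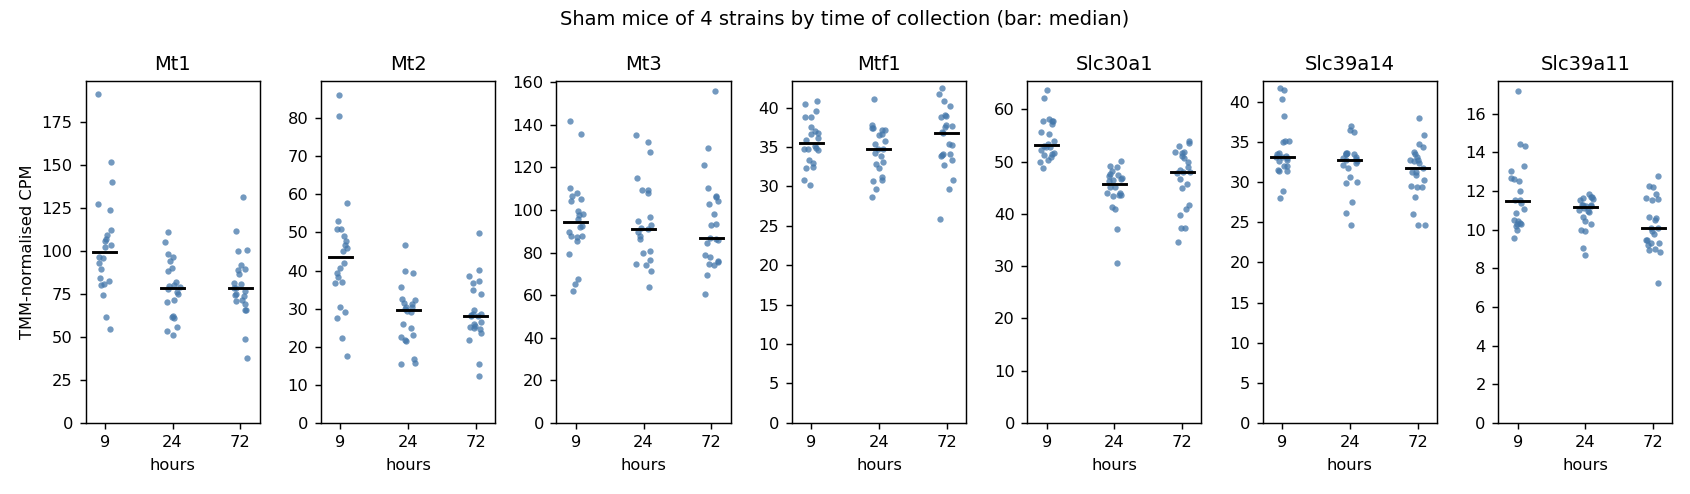
TMM-normalised CPM (y axis) of the 7 genes in the 67 sham mice of 4 strains at 9, 24 and 72 h (x axis); points are mice and bars are medians. Mt1, Mt2 and Slc30a1 sit higher at 9 h, with Slc30a1 at a median of 53.1 CPM against 45.7 and 48.1, whereas the Mt3 medians lie between 86.8 and 94.2 CPM.

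Among sham mice of the 4 strains, 0 of 7 genes differed in the test of 3 degrees of freedom, beside 13.3% of all genes. DESeq2 called 0 too, and an unadjusted p under 0.05 was found for Mtf1 and Slc39a14. The lowest adjusted p was that of Mtf1 (0.061 by edgeR). These sham mice too belong to the comparisons that chose the genes, and no p-value here takes account of that. For IL-1R1 nRestore alone against C57BL/6J, Mtf1 was lower by -0.16 ± 0.05 (edgeR adjusted p = 0.019) and Slc39a14 by -0.15 ± 0.05 (edgeR adjusted p = 0.039), 2 of 7 lower and 0 higher, beside 9.25% of all genes lower and 7.09% higher.

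Sex was tested over all 200 mice within groups. Mt2 was lower in males by -0.21 ± 0.07 (SE, log2), with p = 0.0021 and an adjusted p of 0.13 by edgeR, and 0 of the 7 were called by edgeR or DESeq2, beside 0.534% of all genes. Slc39a11 was the other gene with an unadjusted p under 0.05 (-0.05 ± 0.03, adjusted p = 0.41 by edgeR). Whether the effect of CHI at 9 h differed between the sexes was tested too, and 0 of 7 genes and 0% of all genes were called by edgeR. Over all genes 411 had an unadjusted p under 0.05, of the 7 genes 0 did, and DESeq2 called 0 of the 7 and 1 of all genes. For Mt2 that difference was -0.17 ± 0.27, with a 95% interval from -0.69 to 0.36. These are the mice of the 9 h comparisons that chose the genes, so nothing is read from these counts for the 7.

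Within groups, the metallothioneins moved together from mouse to mouse. After subtracting the mean of each strain, surgery, time and sex group, Pearson's r over 200 mice was 0.93 for Mt1 with Mt2 (Spearman's rho 0.92), 0.73 for Mt1 with Mt3 (0.71) and 0.61 for Mt2 with Mt3 (0.60). Each p was 1e-05 by 100000 permutations within groups, the smallest they can give, or 3.7e-05 adjusted over 63 relations. Experiment was neither subtracted nor kept fixed in the permutations, and most groups pooled mice of several experiments. Differences between experiments therefore remain in these correlations and in those below. Without the 2 mice farthest from the median, r was 0.92, 0.71 and 0.61. Over the 200 mice, r was -0.24 (rho -0.21, permutation p = 0.0011, adjusted 0.0028) for Mt1 with Mtf1 and -0.24 (rho -0.21, permutation p = 0.0029, adjusted 0.0068) for Mt1 with Slc30a1. These pairs gave -0.22 and -0.20 without the 2 farthest mice. In the 46 CHI mice of 9 h alone, Slc30a1 had an r of 0.18 with Mt1 and 0.31 with Mt2. In the CHI mice of 24 and 72 h these were -0.36 and -0.28. Mt2 with Slc30a1 over all mice gave -0.13 (rho -0.13, permutation p = 0.099, adjusted 0.16).

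All 3 metallothioneins followed the mean level of 74 ribosomal protein genes. The r was 0.83 for Mt3 (rho 0.84), 0.63 for Mt1 (rho 0.64) and 0.51 for Mt2 (rho 0.53), each with p = 1e-05 by permutation (adjusted 3.7e-05). Given that score, r was 0.91 for Mt1 with Mt2, 0.49 for Mt1 with Mt3 and 0.38 for Mt2 with Mt3, whereas Mt1 with Mtf1 was 0.11 and Mt1 with Slc30a1 was -0.00. With the score as a covariate the 9 h log2 fold changes in C57BL/6J were 0.79 for Mt1 and 1.34 for Mt2, and that of Mt3 in IL-1R1 eRestore was -0.19. This covariate was chosen after the data were seen.

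Of the list scores, glucocorticoid targets followed Mt1 (r = 0.54, rho 0.51) and Mt2 (r = 0.55, rho 0.52) with permutation p = 1e-05 and adjusted p = 3.7e-05 for each. The r was 0.51 and 0.53 without the 2 farthest mice, and 0.50 and 0.57 in the 67 sham mice alone. Given the ribosomal score it was 0.60 and 0.57. For Mt3 it was 0.26 (rho 0.26, permutation p = 0.0011, adjusted 0.0028). Astrocyte markers followed Mt1 at 0.50 (rho 0.45) and Mt2 at 0.48 (rho 0.46), with permutation p = 1e-05 and adjusted p = 3.7e-05, and at 0.20 and 0.25 given the ribosomal score. With the STAT3 targets, r was 0.19 for Mt1 (rho 0.12, permutation p = 0.022, adjusted 0.043; permutation p of rho 0.137) and 0.21 for Mt2 (rho 0.14, permutation p = 0.016, adjusted 0.032; permutation p of rho 0.083). In sham mice those r were -0.18 and -0.10, and in CHI mice they were 0.30 and 0.29. Choroid plexus and blood markers gave r between -0.01 and 0.06 with Mt1 and Mt2. These list scores were set with earlier results of these data known.

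**Figure D5:**
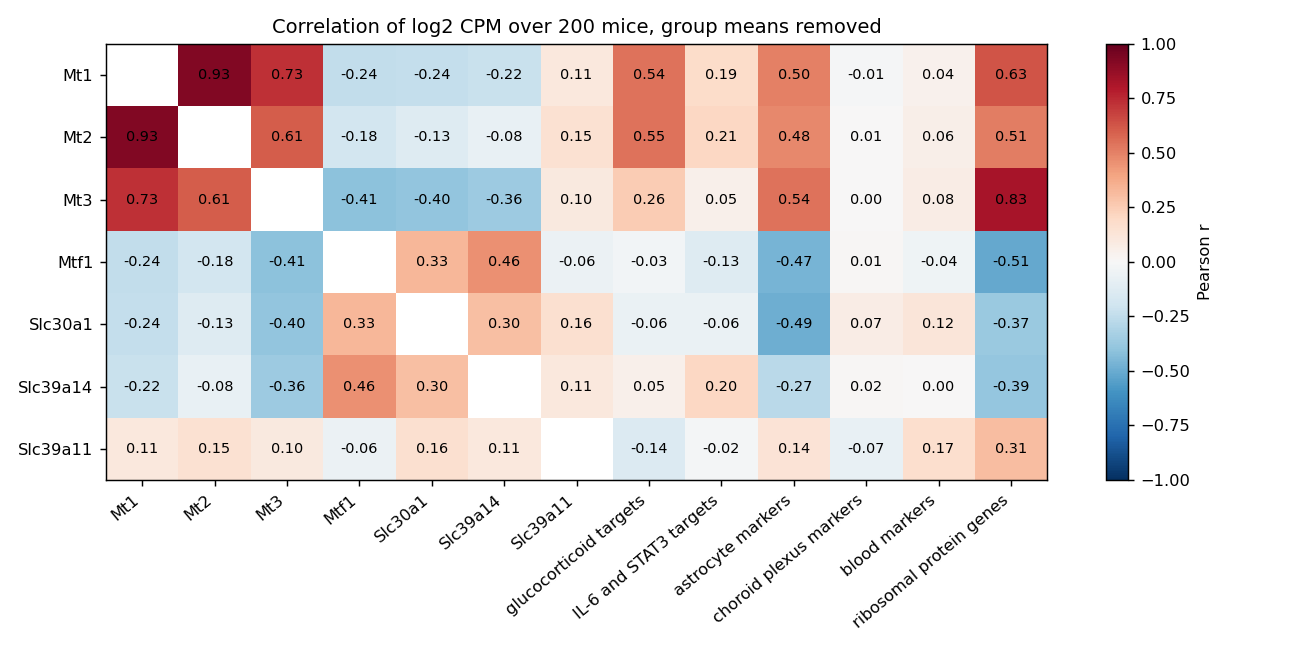
Pearson's r of log2 CPM over 200 mice after removing the means of the strain, surgery, time and sex groups, for the 7 genes (rows) against each other and against 6 mean scores (columns); red is positive and blue negative. The metallothioneins form a positive block of 0.61 to 0.93, and Mt3 reaches 0.83 with the ribosomal protein genes.

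The genes most like each member in these residuals, of 16059 compared over 200 mice, are given as a description. For Mt1 they were Dbi (r = 0.82), Tmsb10 (0.81) and Rpl23a (0.81), and for Mt2 Dbi (0.78), Gm10076 (0.77) and Rps26 (0.76). For Mt3 they were Uqcr11 (0.85) and Cox5b (0.84), subunits of the respiratory chain, and Rpl31 (0.83). For Mtf1 they were Celf1 (0.68), Samd8 (0.67) and Gramd1b (0.67), and for Slc30a1 Gprasp1 (0.71), Dgke (0.70) and Tmem132b (0.69). For Slc39a14 they were Mtmr4 (0.57), Sulf2 (0.55) and Dag1 (0.55), and for Slc39a11 Mtch1 (0.61), Tubb5 (0.60) and Arf1 (0.59).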

How the data were processed

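The RNA-seq, of 1 hemisphere per mouse by the study's methods for C57BL/6J, was used as deposited. The authors aligned poly(A) reads to GRCm39 with STAR and estimated counts and TPM per gene with Salmon through nf-core/rnaseq. The annotation release and the strand setting are not given in the sources used here. Each deposited estimated count was rounded, and the deposited TPM were used only for levels between genes and for the length correction. edgeR 4.0.16 in R 4.3.3 fitted TMM-normalised counts by quasi-likelihood, with sex and age as covariates for CHI against sham. The filter was that of the study: 10 counts or more, in a number of mice equal to the smaller group. CPM values were scaled over all 200 mice. P-values were adjusted by Benjamini-Hochberg over all genes tested. Correlations used log2 CPM (prior count 1), and promoters came from RefSeq (GRCm38.p6). DESeq2 1.42.0 (also with the study's gene-length offsets), RLE factors, no filter, other covariates, single experiments and leaving out mice were the alternatives. The scripts were tested on simulated data. The 7 genes, the lists and the tests were chosen with earlier results of these data known. The text names the 7 genes, list genes called in C57BL/6J or in 2 strains at 1 time, and the 3 genes most like each of the 7; the other genes named are single calls, markers called at 9 h or genes of a count of 5 or fewer, named after their values were seen.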

Additional observations from a re-analysis of the deposited data

Results flagged for a closer look

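In groups of 4 to 10 mice, the highest or lowest mouse was tested by Dixon's criterion for its gap to the rest, over 112 groups of a gene, strain, surgery and time. It marked 10, where chance gives about 1 in 20. Sham mouse 6 of IL-1R1 eRestore at 9 h was the highest of 6 for Mt1 (191.1 CPM, the others at a median of 106.9), for Mt2 (86.1 against 46.6) and for Mt3 (135.9 against 98.02). Sham mouse 3 of IL-1R1 eRestore at 72 h was the lowest of 6 for Mtf1 (25.9 CPM against 40.8) and for Slc30a1 (37.22 against 48.41). Slc30a1 was also marked in IL-1R1 gKO sham mice, at 58.06 CPM against 52.82 at 9 h and 30.53 against 46.49 at 24 h, and in IL-1R1 nRestore sham mice at 9 h, at 54.02 against 57.75. Slc39a14 was lowest at 24.66 CPM against 32.31 in IL-1R1 nRestore sham mice at 72 h. Slc39a11 was lowest at 9.074 CPM against 11.55 in C57BL/6J sham mice at 24 h. All 10 lie in sham groups, but most CHI groups held more than 10 mice and were not tested, whereas every sham group was. With sham mouse 6 of IL-1R1 eRestore at 9 h left out, the log2 fold changes there were 0.41 for Mt1, 0.79 for Mt2 and -0.21 for Mt3.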

How the results depend on the processing

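The higher Mt1 and Mt2 at 9 h in C57BL/6J kept their direction under the 14 alternatives that counted the genes separately, at 0.73 to 0.94 for Mt1 and 1.24 to 1.46 for Mt2 on the log2 scale. Of 1296 values recomputed for the comparisons, 32 moved; the cause was not tested. With DESeq2 and gene-length offsets, Slc39a14 was -0.14 in IL-1R1 gKO, 0.25 in IL-1R1 eRestore and -0.15 in IL-1R1 nRestore at 9 h, 0.049 in C57BL/6J and -0.21 in IL-1R1 eRestore at 24 h and 0.14 in C57BL/6J at 72 h. Under the same setting Mtf1 was -0.10 in IL-1R1 eRestore at 9 h, 0.17 in IL-1R1 nRestore at 24 h, -0.27 in IL-1R1 gKO and 0.13 in IL-1R1 eRestore at 72 h, and Slc39a11 in C57BL/6J at 72 h was 0.080. In the largest experiment only, Mt3 in IL-1R1 gKO at 9 h was 0.31, and in C57BL/6J at 24 h Mt1 was 0.38 and Mt3 0.12. With Mt1 and Mt2 summed, the C57BL/6J value at 24 h was -0.024 where Mt2 alone was -0.41. Leaving out 1 sham mouse at a time gave -0.14 to 0.12 for Slc39a11 in IL-1R1 nRestore at 9 h, the highest without sham mouse 3, and -0.39 to 0.11 for Mt3 there at 24 h, the highest without sham mouse 1. With the ribosomal score, chosen after the data were seen, Mt3 in IL-1R1 nRestore at 9 h was -0.11. Calls among list genes at 9 h were 5 by DESeq2 and 1 with the ribosomal score in IL-1R1 gKO (0 as reported), 11 with the score in IL-1R1 eRestore (5), and 7 by DESeq2, 12 without a filter and 0 with the score in IL-1R1 nRestore (3). At 24 h they were 6 without a filter in C57BL/6J (2), and 2 by DESeq2, 1 without a filter and 2 with the score in IL-1R1 gKO (0). In C57BL/6J sham mice alone, 1 of 7 genes was called at 9 h against 24 h (3 as reported) and 1 against 72 h (5). With the score, 1 was called between strains (0), Mtf1, and 1 between sexes (0), Mt2.

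Differences near 0 changed sign. Mt3 at 9 h against 24 h was 0.019 with the score. In C57BL/6J sham mice alone, Mtf1 at 9 h against 72 h was 0.0078, and at 24 h against 72 h Mt1 was 0.14 and Mt2 0.071. Mt3 at 24 h against 72 h was -0.0037 in experiments with both times. Slc30a1 in males against females was 0.0016 with RLE factors, 0.0013 by DESeq2 and 0.0028 without the 2 mice whose sex-linked genes went against the label, and the sex difference in the CHI effect on Slc39a11 was -0.0062 with the score. No paired analysis was possible because the labels give no replicate numbers shared between groups. Mice of both surgeries do share experiments, and within the 8 sets of 1 experiment and strain at 9 h the differences were 0.20 to 0.91 for Mt1 and 0.48 to 1.38 for Mt2, without covariates. Groups of 4 to 6 sham mice limit the precision of each fold change.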

Other observations

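The other zinc transporters were compared between sham mice of 9 h and of later times. Of 18 tested, 9 were higher and 2 lower at 9 h than at 24 h (edgeR, adjusted p under 0.05), beside 24.1% of all genes higher and 24.8% lower. Against 72 h, 9 were higher and 3 lower, beside 23.3% and 23.6%. Among those higher at both times were Slc30a3, which loads zinc into synaptic vesicles (0.34 and 0.38 on the log2 scale), and Slc39a9 (0.23 and 0.24). Slc30a10, a manganese exporter, was lower (-0.22 and -0.35). Between sham mice of the 4 strains, 2 of 19 were called, Slc30a4 and Slc30a10, beside 13.3% of all genes. For sex and for the strain by CHI interaction edgeR called 0. These names were chosen after their values were seen, and experiment, age, time of day and time since surgery cannot be told apart.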
